A study of Arabidopsis thaliana with 12 samples.

Results

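The transcripts described here are those of the Arabidopsis thaliana mitochondrial genome, whose loci carry identifiers that start with ATMG. Of 146 ATMG rows in the count table, 72 reached a sum of at least 20 counts over the 12 libraries and are the members, among 33602 loci in all. Of the rest, 58 rows held 0 counts in every library and 16 held 1 to 17. The members nearest the threshold were ATMG00820 with 20 counts and ATMG01380 with 24, and the rows just under it were ATMG00920 with 17 and ATMG01270 with 16. The libraries came from roots of Col-0 wild type and of myb36-1 seedlings at 6 days, as 3 biological replicates in each of 4 groups. Whole roots were frozen at harvest and their RNA taken with the RNeasy kit. For the other groups, roots of the same genotypes were protoplasted, the endodermal cells sorted by fluorescence and frozen, and the RNA taken with the RNeasy micro kit. Neither the marker line behind the sort nor the lesion in myb36-1 is stated in the labels. All plants grew on mesh with sucrose under long days, and all libraries were strand-specific.

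Plant mitochondria keep a small genome that encodes core subunits of the respiratory complexes and of ATP synthase, some ribosomal proteins, factors that attach haem to cytochrome c, and the ribosomal and transfer RNAs of the organelle. All other mitochondrial proteins, among them the RNA polymerases that transcribe this genome, are encoded in the nucleus and imported, so respiratory complexes are assembled from products of both genomes. The gene disrupted in the mutant, MYB36, encodes a MYB-type regulator that the endodermis, the ring of cells enclosing the vascular tissue, needs to build its Casparian strip. The count table gives ATMG identifiers without names, and the reference annotation pairs an identifier with a product only through nuclear copies of mitochondrial genes, so most members are called by their identifier.

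Those copies bear on what an ATMG count holds. The TAIR10.1 annotation relates 53 of the 146 rows to 55 nuclear loci, 54 of them on chromosome 2 between positions 3239693 and 3503476. Each of the 54 shared at least 83.8% of its 50-base windows with the mitochondrial genome of the reference. Of 38 copies with a first coding stretch of 150 bases, 33 had no difference from the mitochondrial genome there, and 4 had 1. The copies below are shown because reads from them could be assigned to either place. They stand for apocytochrome b (AT2G07727, chr2:3450863-3451012, plus strand), F0-ATPase subunit 9 (AT2G07671, chr2:3251964-3252113, minus strand), cytochrome c oxidase subunit 3 (AT2G07687, chr2:3312502-3312651, minus strand) and ATPase subunit 6-1 (AT2G07741, chr2:3502319-3502468, plus strand), and each has no difference from the mitochondrial genome over these 150 bases. The last 2 lines give the copy of the cytochrome c oxidase subunit II-like locus (AT2G07695, chr2:3346951-3347100, plus strand) and its match in the mitochondrial genome, with the 1 base that differs in capitals. The chromosome 2 stretches are coding sequence in TAIR10.1.
AT2G07727: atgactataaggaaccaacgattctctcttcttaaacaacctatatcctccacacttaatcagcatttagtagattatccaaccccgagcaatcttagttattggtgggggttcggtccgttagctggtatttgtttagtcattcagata
AT2G07671: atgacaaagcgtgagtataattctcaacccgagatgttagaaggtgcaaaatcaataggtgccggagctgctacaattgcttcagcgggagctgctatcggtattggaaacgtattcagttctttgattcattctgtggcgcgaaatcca
AT2G07687: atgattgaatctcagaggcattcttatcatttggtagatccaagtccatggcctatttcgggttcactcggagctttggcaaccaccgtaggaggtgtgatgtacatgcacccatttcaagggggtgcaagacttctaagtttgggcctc
AT2G07741: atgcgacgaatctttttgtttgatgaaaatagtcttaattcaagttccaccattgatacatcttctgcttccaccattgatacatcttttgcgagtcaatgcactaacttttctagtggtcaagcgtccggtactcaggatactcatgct
AT2G07695, chromosome 2: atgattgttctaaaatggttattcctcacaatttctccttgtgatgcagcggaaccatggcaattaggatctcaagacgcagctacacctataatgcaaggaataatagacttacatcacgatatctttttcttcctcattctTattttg
AT2G07695, mitochondrial match: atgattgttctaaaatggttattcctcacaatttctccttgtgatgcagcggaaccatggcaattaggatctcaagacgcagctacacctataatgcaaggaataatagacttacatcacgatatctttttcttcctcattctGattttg

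Counts were split between the pairs in every way. Here the rows were chosen after their values were seen. ATMG00220, whose copy is the apocytochrome b locus AT2G07727, held 6 counts in all 12 libraries together, and the nuclear copy held 62073. ATMG00210 (ribosomal protein L5) and ATMG00290 (mitochondrial ribosomal protein S4) held 0 counts, against 13555 and 16558 at their copies AT2G07725 and AT2G07734. For cytochrome c oxidase subunit 3 both were counted, with 124750 at ATMG00730 and 174043 at AT2G07687. For ATPase subunit 6-1 the order was turned, with 277073 counts at ATMG00410 and 0 at AT2G07741. Of the 53 rows with a copy, 22 were members and 21 were at 0, while of the 93 rows without one 50 were members and 37 were at 0. Summed over the chromosome 2 copies, the level was 2041 to 2668 CPM (counts scaled to a common library total over all loci) in WT sorted cells, 4009 to 4236 in mutant sorted cells, 2875 to 3352 in WT whole root and 3412 to 3710 in mutant whole root libraries. The part of read assignment in the results for members with a copy was not tested.

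Library totals were 17721913 to 24274637 counts in WT sorted cells, 7280556 to 13427477 in mutant sorted cells and 19812171 to 22722091 in whole roots. MYB36 itself was at 127, 167 and 249 CPM in WT sorted libraries and at 81.9, 193 and 95.5 in mutant sorted libraries, where the groups overlapped (edgeR adjusted p = 0.273). In whole roots it was at 32.9, 37.0 and 35.3 CPM in WT and 21.1, 19.5 and 17.4 in mutant libraries (adjusted p = 0.0025). The 7 endodermis markers summed to 1787 to 2685 CPM in WT sorted cells and 485 to 604 in WT whole roots, and to 767 to 1310 and 85.1 to 95.3 in the mutant. The list did not move as one in sorted cells: the mean of SCR (AT3G54220), a regulator of endodermal identity, was 277 CPM in wild type and 793 in the mutant, while the 5 CASP genes, which build the Casparian strip scaffold, were lower, CASP1 (AT2G36100) at 935 and 79.1 CPM. The 5 xylem and phloem markers summed to 4.00 to 8.35 CPM in WT sorted cells and 3.81 to 15.2 in mutant sorted cells, against 213 to 305 in whole roots. Root cap markers (4 genes) summed to 95.4 to 130 CPM in WT and 1.90 to 4.81 in mutant sorted cells, and root hair and epidermis markers (5 genes) to 161 to 194 and 26.1 to 42.9. In whole roots the root cap list summed to 38.1 to 65.2 CPM in WT and 55.1 to 74.7 in the mutant. The root hair and epidermis list summed there to 141 to 266 and 217 to 272 CPM. From WT sorted cells to WT whole roots neither list moved as one. Mean BRN1 was 62.4 and 8.93 CPM and BFN1 12.0 and 27.1, while WER was 55.6 and 13.1 and PRP3 28.1 and 63.5. The 6 wounding markers summed to 889 to 1212 CPM in WT sorted, 1848 to 4601 in mutant sorted, 64.8 to 89.1 in WT whole root and 128 to 142 in mutant whole root libraries. The 3 meristem markers summed to 47.0 to 61.6 CPM in WT sorted, 43.6 to 170 in mutant sorted and 21.6 to 27.1 in whole root libraries. No marker list had a gene at 0 in a whole group. The part of these cell types and of the wounding genes in the results below was not tested.

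Members took a larger share of all counts in sorted cells than in whole roots, and 1 locus carried the difference. The share was 3.39%, 2.84% and 4.29% in the 3 WT sorted libraries, 3.75%, 3.92% and 7.46% in the mutant sorted libraries, 1.22%, 1.16% and 1.15% in WT whole root libraries, and 1.26%, 1.19% and 1.504% in those of the mutant. Every sorted library was above every whole-root library, and the sorted groups of the 2 genotypes overlapped. The means were 3.51 ± 0.731% (SD, n = 3) and 5.04 ± 2.09% in sorted cells with 1.18 ± 0.0400% and 1.32 ± 0.164% in whole roots, and without the highest mutant library the mutant sorted mean was 3.84%. ATMG00020, ATMG01380 and ATMG01390 were treated here as the ribosomal RNA loci among the members. How ribosomal RNA was handled in library preparation is not stated in the sources used. Without these 3 loci the share was 1.08%, 1.18% and 1.12% in WT sorted and 1.07%, 1.08% and 1.06% in mutant sorted libraries. In whole roots it was 1.15%, 1.07% and 1.07% in WT and 1.12%, 1.12% and 1.33% in mutant libraries. In this reduced share the tissues overlapped in wild type and the genotypes overlapped in both tissues, while the mutant sorted libraries lay just below the mutant whole-root libraries. In these bulk samples, fewer cells of a type and less RNA per cell cannot be told apart.

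**Figure D1:**
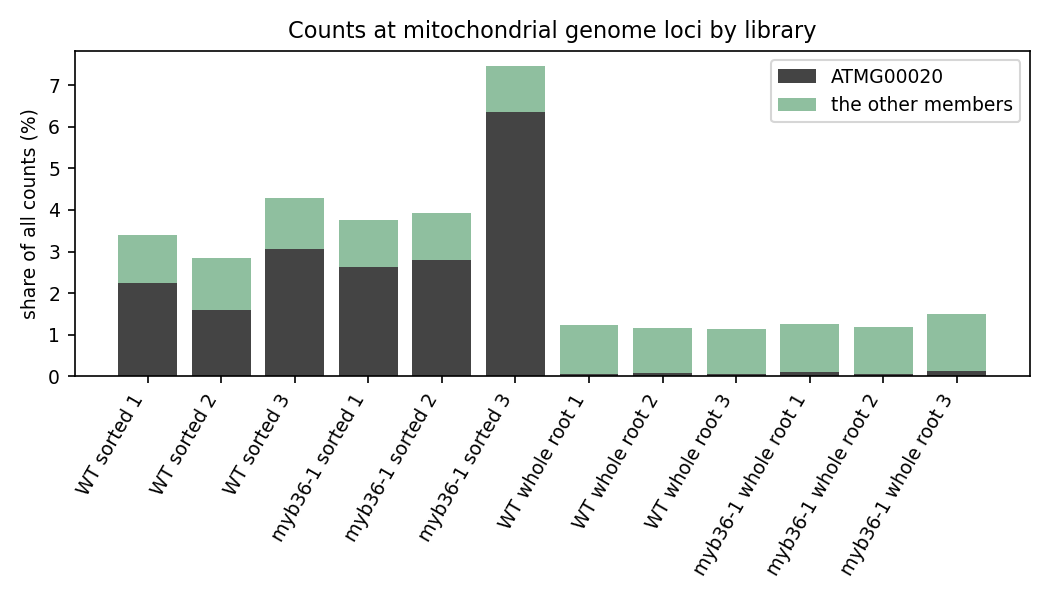
Share of all counts (%, y axis) at the 72 members in each of the 12 libraries, with ATMG00020 in dark grey and the other members in green. The green parts are of like height in all libraries, and ATMG00020 reaches 1.61% to 6.36% in sorted cells and at most 0.139% in whole roots.

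ATMG00020 was the member with the most counts, at 49.8% of all ATMG counts over the 12 libraries. It was at 22455, 16052 and 30700 CPM in WT sorted, 26314, 28042 and 63622 in mutant sorted, 644, 708 and 646 in WT whole root and 1014, 557 and 1391 in mutant whole root libraries. Sorted cells stood above whole roots with no overlap in either genotype, while the genotypes overlapped within each tissue. The log2 difference of sorted over whole root was 5.34 ± 0.27 (SE, edgeR quasi-likelihood test, adjusted p = 3.6e-07) in wild type and 5.52 ± 0.57 (adjusted p = 7.0e-04) in the mutant, and both were called in 16 of 16 alternative settings. Between genotypes the log2 difference was 0.80 ± 0.41 in sorted cells (adjusted p = 0.184) and 0.60 ± 0.28 in whole roots (adjusted p = 0.284). Within the ATMG counts, this locus took 56.5% to 71.6% in WT sorted, 70.1% to 85.3% in mutant sorted, 5.27% to 6.09% in WT whole root and 4.66% to 9.25% in mutant whole root libraries. ATMG01390 was the other of the 3 with a high level, at 664, 586 and 962 CPM in WT sorted, 523, 360 and 310 in mutant sorted, 91.5, 188 and 148 in WT whole root and 337, 149 and 376 in mutant whole root libraries. It was higher in WT sorted cells than in WT whole roots by 2.60 ± 0.28 on the log2 scale (adjusted p = 2.8e-05), and in the mutant the tissues overlapped (0.70 ± 0.40, adjusted p = 0.231). Of other ribosomal RNA loci in the table, the nuclear ones took 0.00953% to 0.0176% of counts in sorted and 0.0505% to 0.274% in whole-root libraries. The 2 of them tested went opposite ways in WT sorted cells against WT whole roots, AT2G01010 with log2 1.08 ± 0.40 (edgeR adjusted p = 0.034) and AT3G41768 with -1.77 ± 0.22 (edgeR adjusted p = 7.2e-05). Plastid ribosomal RNA had a mean share of 5.8e-05% in WT sorted and 7.7e-06% in WT whole root libraries, and 9.7e-05% and 1.7e-05% in the mutant, and none of its 4 loci passed the low-count filter. Tissue, protoplasting, sorting and RNA kit went together in this design and cannot be told apart.

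Within the sorted endodermis, 18 of 60 members tested differed between genotypes, 15 of them higher in the mutant and 3 lower. Over all 18318 loci tested, 28.5% were called, 15.6% higher and 12.9% lower. The median log2 difference was 0.56 over the members tested and -0.05 over all loci. Scaled to the ATMG total, 9 members were called, 7 higher and 2 lower, with a median of 0.13 where that of all loci was -0.50. On that scaling 2747 of all 18318 loci were called, 709 higher and 2038 lower. The members called span the ATP synthase, cytochrome c oxidase and cytochrome c maturation descriptions and many loci without a description.

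**Figure D2:**
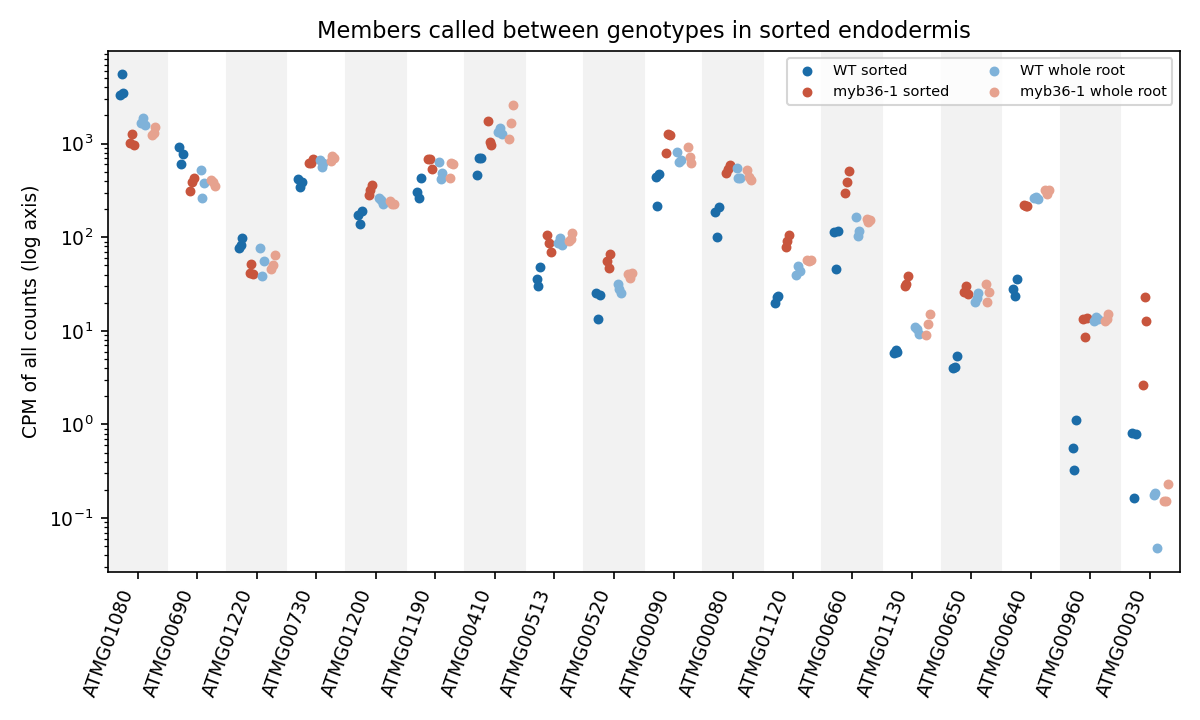
CPM of all counts (log y axis) for the 18 members called between genotypes in sorted endodermis, ordered by log2 difference, with 1 point per library and colours for the 4 groups. The first 3 loci are lower in the mutant sorted libraries, the other 15 higher; for several of these, such as ATMG00640 and ATMG00960, only the WT sorted points lie apart from the rest.

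Among ATP synthase loci the directions were opposed. Subunit 9, described for ATMG01080, is a protein of the membrane ring that turns as protons pass. Its locus was at 3271, 5493 and 3484 CPM in WT sorted, 1009, 1260 and 960 in mutant sorted, 1645, 1897 and 1565 in WT whole root and 1243, 1287 and 1522 in mutant whole root libraries. All 3 WT sorted libraries lay above the other 9. The mutant was lower in sorted cells by -1.90 ± 0.28 on the log2 scale (adjusted p = 0.0026, called in 16 of 16 alternatives), and in whole roots the difference was -0.31 ± 0.14 (adjusted p = 0.270). ATMG00410, described as ATPase subunit 6-1, which forms the proton path beside the ring, was at 467, 705 and 705 CPM in WT sorted and 1754, 1044 and 969 in mutant sorted libraries, with no overlap. Its log2 difference was 1.07 ± 0.34 (adjusted p = 0.047), and it was called in 9 of 16 alternatives. In whole roots ATMG00410 was at 1323, 1472 and 1262 CPM (WT) and 1112, 1669 and 2588 CPM (mutant), which overlapped. ATMG01190, described as ATP synthase subunit 1, part of the catalytic head, was at 301, 263 and 429 CPM in WT sorted and 679, 689 and 537 in mutant sorted libraries, with no overlap (log2 0.98 ± 0.25, adjusted p = 0.022, called in 13 of 16 alternatives). ATMG01090, described as ATP synthase 9 and chosen after its values were seen, was at 10.9, 11.6 and 23.4 CPM in WT sorted and 21.7, 25.8 and 13.9 in mutant sorted libraries, which overlapped (adjusted p = 0.404). Of the 4 loci described as parts of ATP synthase, 2 rose, 1 fell and 1 did not pass the test. These 4 all have a copy on chromosome 2. AT2G07671, the copy of ATMG01080, was at 433, 372 and 393 CPM in WT sorted, 262, 283 and 194 in mutant sorted and 370 to 508 in whole root libraries.

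Of loci with a description for electron transport or cytochrome c, ATMG00730 and ATMG00960 rose. Other loci in the list of respiratory and ribosomal roles have no description here. Some of them rose too, such as ATMG00080, ATMG00640, ATMG00650 and ATMG01120, given below. ATMG00730, described as cytochrome c oxidase subunit 3, a core subunit of the terminal oxidase, was at 416, 340 and 388 CPM in WT sorted, 626, 615 and 693 in mutant sorted, 675, 558 and 626 in WT whole root and 646, 739 and 703 in mutant whole root libraries. WT sorted cells were the low group, below all other libraries (mutant over wild type in sorted cells, log2 0.80 ± 0.20, adjusted p = 0.019, called in 11 of 16 alternatives). ATMG00960, described as a cytochrome C assembly protein, was at 0.56, 0.33 and 1.13 CPM in WT sorted, 13.4, 8.64 and 13.9 in mutant sorted, 12.9, 14.01 and 13.2 in WT whole root and 12.6, 13.2 and 14.98 in mutant whole root libraries. The WT sorted values rest on 11, 8 and 20 counts. The mutant sorted cells were higher by 4.22 ± 0.59 on the log2 scale (adjusted p = 0.0021, called in 16 of 16 alternatives), and differed from mutant whole roots by 0.05 ± 0.32 on that scale (adjusted p = 0.927). ATMG00180, described as a cytochrome C biogenesis protein, was at 4.68, 6.18 and 6.60 CPM in WT sorted and 7.75, 4.32 and 0 in mutant sorted libraries, which overlapped (adjusted p = 0.794). ATMG01320, described as NADH dehydrogenase 2B, a subunit of complex I, was at 189, 160 and 177 CPM in WT sorted and 137, 176 and 135 in mutant sorted libraries, which overlapped as well (adjusted p = 0.455). ATMG00560, described as an OB-fold nucleic acid-binding protein, was at 187, 128 and 161 CPM and 134, 181 and 207 CPM (adjusted p = 0.625).

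Loci without a description made up most of the rises, as they do of the members, where 11 of 72 have a described product. ATMG00640 was at 27.8, 23.4 and 35.6 CPM in WT sorted, 220, 217 and 218 in mutant sorted, 265, 268 and 254 in WT whole root and 319, 293 and 318 in mutant whole root libraries. WT sorted cells alone were low. The mutant over wild-type difference in sorted cells was 2.96 ± 0.23 on the log2 scale (adjusted p = 3.1e-04, called in 16 of 16 alternatives). ATMG00650 was at 3.97, 4.12 and 5.36 CPM in WT sorted and 25.9, 30.0 and 24.7 in mutant sorted libraries, against 20.2 to 31.6 in whole roots (log2 2.62 ± 0.27, adjusted p = 7.3e-04). ATMG00080 was at 188, 101 and 210 CPM in WT sorted and 485, 540 and 589 in mutant sorted libraries, against 408 to 551 in whole roots (log2 1.73 ± 0.29, adjusted p = 0.0040). In these 3, every WT sorted library lay below the 9 other libraries.

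In another set the mutant sorted cells were the high group. ATMG01130, chosen after its values were seen, was at 5.80, 6.26 and 5.92 CPM in WT sorted, 29.8, 32.0 and 38.3 in mutant sorted, 10.9, 10.5 and 9.27 in WT whole root and 9.09, 11.9 and 15.03 in mutant whole root libraries (sorted mutant over wild type, log2 2.51 ± 0.24, adjusted p = 6.2e-04). ATMG00660 was at 115, 45.7 and 116 CPM in WT sorted, 299, 386 and 511 in mutant sorted, 163, 103 and 117 in WT whole root and 158, 147 and 152 in mutant whole root libraries (log2 2.15 ± 0.37, adjusted p = 0.0048). ATMG01120 was at 19.8, 22.9 and 23.8 CPM in WT sorted, 78.0, 90.4 and 107 in mutant sorted, 39.1, 49.0 and 43.3 in WT whole root and 57.4, 56.0 and 56.9 in mutant whole root libraries (log2 2.08 ± 0.21, adjusted p = 6.8e-04). In all 3, the mutant sorted libraries lay above the other 9. ATMG00030 had the largest log2 difference of the members called, 4.41 ± 0.89 (adjusted p = 0.0087), at 16, 4 and 14 counts in WT sorted and 35, 181 and 92 in mutant sorted libraries, and at most 5 in any whole-root library. Its mutant values spread from 2.61 to 23.0 CPM.

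Of the 2 other loci that fell, ATMG00690 was at 922, 606 and 779 CPM in WT sorted and 310, 388 and 434 in mutant sorted libraries (log2 -0.996 ± 0.22, adjusted p = 0.013, called in 14 of 16 alternatives), and whole roots were at 264 to 520. ATMG01220, described as an unknown protein, was at 76.2, 83.2 and 97.8 CPM and 41.4, 52.1 and 40.1 CPM (log2 -0.91 ± 0.20, adjusted p = 0.012, called in 13 of 16 alternatives). ATMG00160 missed the threshold, at 664, 644 and 640 CPM in WT sorted and 441, 387 and 389 in mutant sorted libraries, which did not overlap (log2 -0.63 ± 0.21, adjusted p = 0.050). ATMG01360, the third most counted member, was at 1648, 1393 and 1566 CPM and 1375, 1299 and 1311 CPM (adjusted p = 0.586).

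In whole roots, 1 of 59 members tested was called between genotypes, against 6.1% of 19624 loci, 3.25% higher and 2.85% lower. It was ATMG00520, at 31.6, 28.1 and 25.5 CPM in WT and 40.9, 37.0 and 41.4 in mutant libraries (log2 0.51 ± 0.12, adjusted p = 0.037, called in 8 of 16 alternatives). The count was 0 without WT replicate 3 or mutant replicate 1 or 3, and 2 without WT replicate 1 or mutant replicate 2. At an unadjusted p under 0.05, 5 members passed, against 3755 of all 19624 loci. The members' median log2 difference was 0.22, and that of all loci 0.01. ATMG00520 also rose in sorted cells, from 25.1, 13.5 and 24.2 CPM in wild type to 55.9, 46.5 and 65.8 in the mutant (log2 1.47 ± 0.30, adjusted p = 0.0089).

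The genotype effect was compared between tissues by an interaction term. It was called for 18 of 63 members, with 13 more positive and 5 more negative in sorted cells than in whole roots; over all 20302 loci tested, 28.4% were called, 13.8% more positive and 14.6% more negative. Scaled to the ATMG total, 10 members were called, 7 more positive and 3 more negative, against 2768 of all 20302 loci, 872 more positive and 1896 more negative. The largest differences below are from the main fit. The largest were ATMG00960 with 4.17 ± 0.52 on the log2 scale (adjusted p = 1.4e-04), ATMG00030 with 4.01 ± 1.27 (adjusted p = 0.033, called in 10 of 21 alternatives) and ATMG00640 with 2.67 ± 0.23 (adjusted p = 1.4e-05), and on the negative side ATMG00360 with -2.91 ± 1.02 (adjusted p = 0.049), ATMG01390 with -1.89 ± 0.53 (adjusted p = 0.018) and ATMG01080 with -1.61 ± 0.31 (adjusted p = 0.0021). ATMG00360 rests on 0, 1 and 4 counts in mutant sorted libraries against 17 to 38 in the other 9, and it was called in 6 of 21 alternatives.

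**Figure D3:**
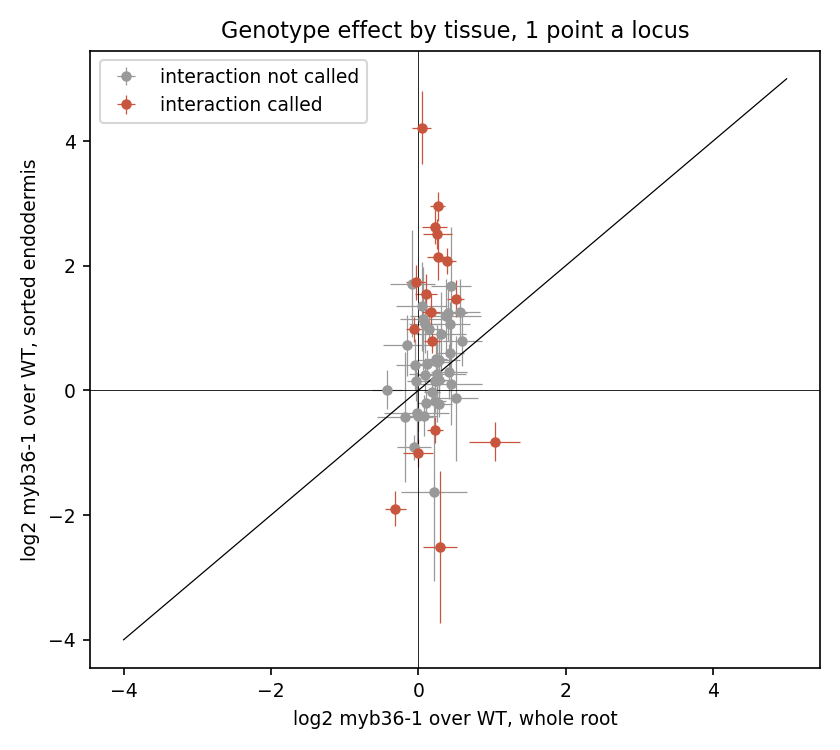
Log2 difference of myb36-1 over WT in sorted endodermis (y axis) against whole root (x axis) for the 56 members tested in both, with bars of 1 SE and the line of equal effects. The 17 members with a called interaction, in red, lie off that line, 1 of them (ATMG00520) called in both tissues, while most members lie near 0 on the whole-root axis.

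Between tissues in wild type, 37 of 59 members tested were called, 24 higher and 13 lower in sorted cells, against 68.7% of 19747 loci, 33.4% higher and 35.4% lower. These directions depend on the scaling: relative to the total of the ATMG rows, which ATMG00020 dominates in sorted cells, 3 were higher and 43 lower. All loci moved in the same way, with 797 of 19747 then higher and 16752 lower. Beside ATMG00020 and ATMG01390, the largest rise among loci of the naming rule was ATMG00630, at 7.12, 4.00 and 9.87 CPM in WT sorted and 1.54, 1.16 and 1.10 in WT whole root libraries (log2 2.67 ± 0.35, adjusted p = 1.1e-04). ATMG00570 was at 57.6, 44.9 and 54.8 CPM against 13.95, 16.1 and 17.5 (log2 1.95 ± 0.15, adjusted p = 3.3e-06), and of 16 alternatives missed the threshold only when scaled to the ATMG total (adjusted p = 0.466). ATMG01080 was higher in sorted cells by 1.495 ± 0.22 (adjusted p = 2.4e-04). The largest falls were ATMG00960 (log2 -4.13 ± 0.34, adjusted p = 5.5e-06), ATMG00640 (-2.95 ± 0.16, adjusted p = 5.0e-07) and ATMG00650 (-2.11 ± 0.18, adjusted p = 6.4e-06), each called in 16 of 16 alternatives.

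In the mutant, 19 of 61 members tested were called between tissues, 19 higher and 0 lower in sorted cells, against 29.6% of 19347 loci, 12.3% higher and 17.3% lower. The number unadjusted was 28, against 7940 of all 19347 loci. DESeq2 called 23 of 72 members higher and 1 lower, against 3107 and 3968 of 26788 loci. Scaled to raw library totals, 11 were higher and 3 lower, and scaled to the ATMG total, 2 were higher and 35 lower. With a replicate block 9 were called, and without any 1 of the mutant whole-root libraries 6 or 7. Of the 24 members higher in sorted cells of wild type, 12 were also higher in the mutant, among them ATMG00020, ATMG00630 (7.67, 10.8 and 8.93 CPM against 1.26, 1.36 and 1.01; log2 3.11 ± 0.40, adjusted p = 0.0016) and ATMG00570 (log2 1.51 ± 0.26, adjusted p = 0.0051). The like overlap over all loci is not given here, so the 12 are not read as a trait of the members. In mutant sorted cells ATMG00030 was higher than in mutant whole roots by 6.23 ± 0.88 (adjusted p = 0.0024). ATMG00640, ATMG00650 and ATMG00960, low in WT sorted cells, were not called between the mutant's tissues (adjusted p = 0.221, 0.433 and 0.927). ATMG00190, chosen after its values were seen, held 0 counts in all 6 sorted libraries and 7, 12 and 7 in WT and 15, 6 and 7 in mutant whole-root libraries. It reached the sum of 20 through the whole-root libraries alone.

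**Figure D4:**
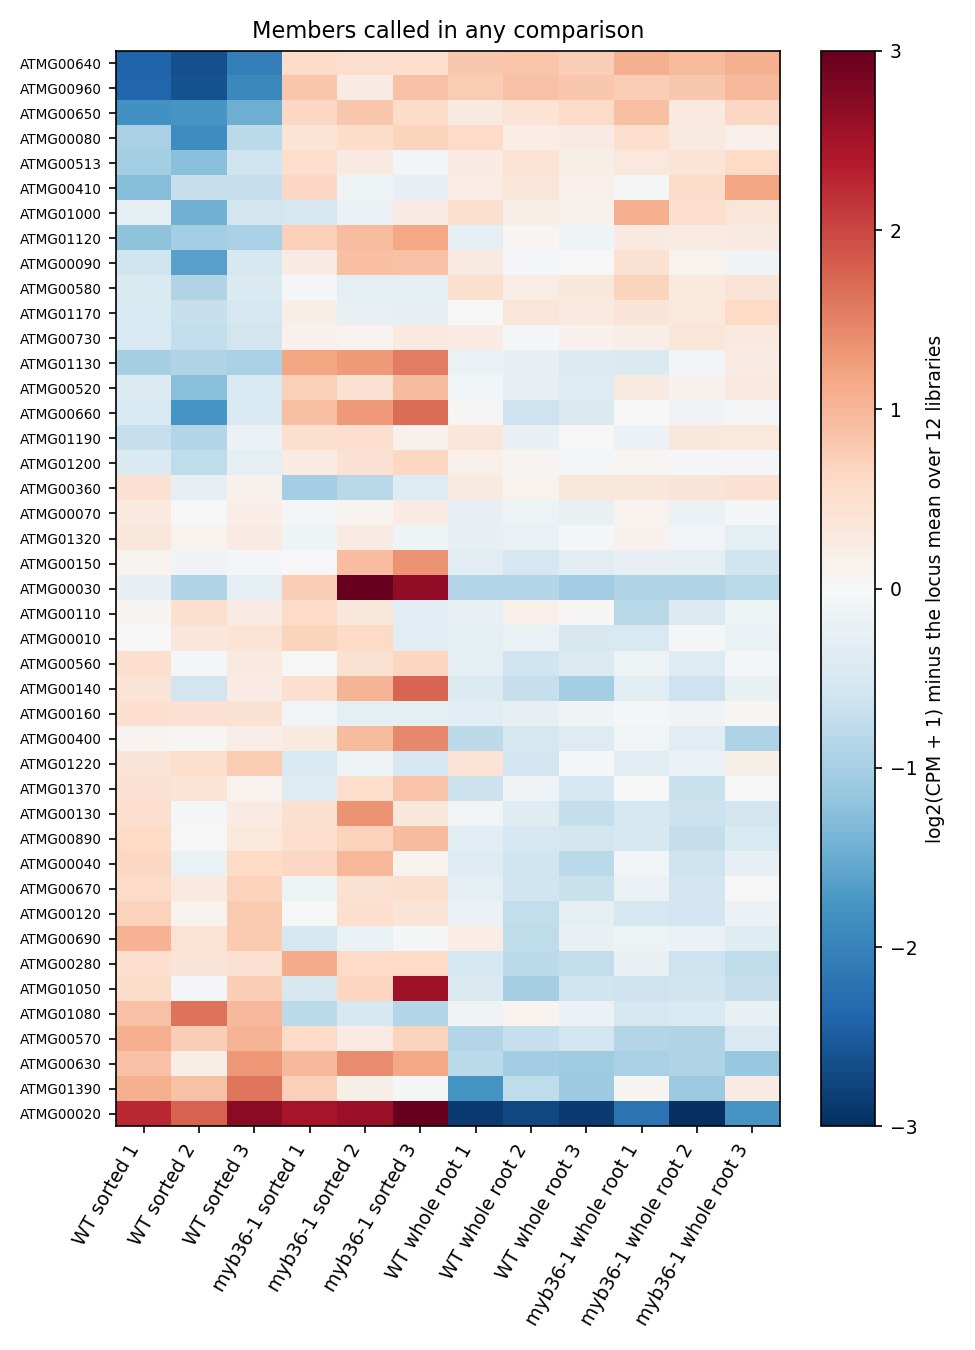
Members called in any of the 5 comparisons (rows, ordered by WT sorted minus all whole-root libraries) in the 12 libraries (columns), as log2(CPM + 1) minus the locus mean over libraries, with colours clipped at 3. The top 4 rows are low in the 3 WT sorted columns only, ATMG01080 is high there only, and ATMG00020 is high in all 6 sorted columns.

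The order of members by share shifted with these changes. Among ATMG counts without ATMG00020, ATMG01380 and ATMG01390, the 8 members with the highest mean share took 75.4% to 82.1% in WT sorted, 61.4% to 65.4% in mutant sorted, 69.6% to 70.6% in WT whole root and 65.6% to 72.1% in mutant whole root libraries. ATMG01080 alone took 30.3%, 46.7% and 31.0% in WT sorted and 9.45%, 11.6% and 9.04% in mutant sorted libraries. In whole roots it took 14.3%, 17.7% and 14.6% in WT and 11.1%, 11.4% and 11.5% in mutant libraries. ATMG00090, without a description, moved the other way, from 4.11%, 1.83% and 4.26% in WT sorted to 7.41%, 11.7% and 11.5% in mutant sorted libraries. These shares are of counts and are not per length, so they do not rank transcripts.

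The authors' deposited tables give FPKM, a level per length, for mitochondrial loci by symbol, pooled over replicates and normalized for each tissue on its own. In the authors' deposited table for sorted endodermis, 12 of 31 tested rows with a respiratory, ribosomal or maturation symbol had a q-value under 0.05, all 12 higher in the mutant; 13.5% of 20622 tested rows were higher and 3.95% lower by that rule. Their median log2 difference in the authors' deposited table was 0.93. Of all 174 tested mitochondrial rows in the authors' deposited table for sorted endodermis, 42 were higher and 0 lower by that rule, with a median of 1.31. Ribosomal protein rows were among the 12: in the authors' deposited table RPL5 went from 65.5 FPKM in wild type to 384 in the mutant (q = 2.6e-06), and RPS7 from 27.2 to 149 (q = 4.2e-05). RPL2 (387 and 641, q = 0.302) and RPS4 (329 and 751, q = 0.140) did not pass in the authors' deposited table. MATR, the maturase that acts in intron splicing, went from 61.4 to 274 FPKM in the authors' deposited table (q = 6.6e-04). Of complex I genes, the authors' deposited table lists NAD5 at 204 and 676 FPKM (q = 0.032) and a NAD1 row at 267 and 762 (q = 0.011). The row that joins NAD4L, NAD5B, ORF149, ORF25 and ORF275 was at 454 and 2517 in the authors' deposited table (q = 1.4e-11). In the authors' deposited table, rows that join NAD3, ORF114 and ORF118 (378 and 1109, q = 9.1e-05) and NAD2 and ORF107H (387 and 509, q = 0.021) passed too. Complex I rows that did not pass in the authors' deposited table were NAD4 (390 and 691, q = 0.333), NAD6 (1666 and 1435, q = 0.824) and NAD7 (459 and 872, q = 0.229). Nor did another NAD1 row (148 and 221, q = 0.396) and a NAD2 row (190 and 261, q = 0.500) pass in the authors' deposited table. Of cytochrome c maturation rows, the authors' deposited table lists CCB203 at 12.4 and 76.2 FPKM (q = 5.6e-05) and CCB256 at 13.99 and 47.0 (q = 0.0079), while CCB452 (189 and 238, q = 0.653) and CCB382 (27.9 and 45.3, q = 0.305) did not pass.

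None of the rows for COB, COX1, COX2, COX3, ATP1, ATP6, ATP8 and ATP9 alone passed in the authors' deposited table for sorted endodermis. The row that joins ATP6-2, NAD1, ORF106F and ORF106G did pass in the authors' deposited table for sorted endodermis, at 759 and 2372 FPKM (q = 2.9e-05). There ATP9 was at 12628 FPKM in wild type and 4600 in the mutant (q = 0.206), COX3 at 632 and 1493 (q = 0.213), ATP1 at 1072 and 3239 (q = 0.213) and COB at 894 and 1456 (q = 0.488). ATP9 was the highest of these rows in the authors' deposited table in both genotypes and both tissues. In the authors' deposited table for whole roots, 2.29% of 19262 tested rows were higher in the mutant and 2.33% lower. Of all 177 tested mitochondrial rows in the authors' deposited table for whole roots, 2 passed. Both were higher in the mutant and were among the 32 tested rows with a respiratory, ribosomal or maturation symbol. They were RRN26, the large ribosomal RNA, at 282 and 437 FPKM (q = 0.017), and the row that joins COX1, ORF111D, RRN18 and RRN5 at 94.2 and 195 (q = 0.0019) in the authors' deposited table. RRN26 has no value for sorted cells in the authors' deposited table, where its status is HIDATA.

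**Figure D5:**
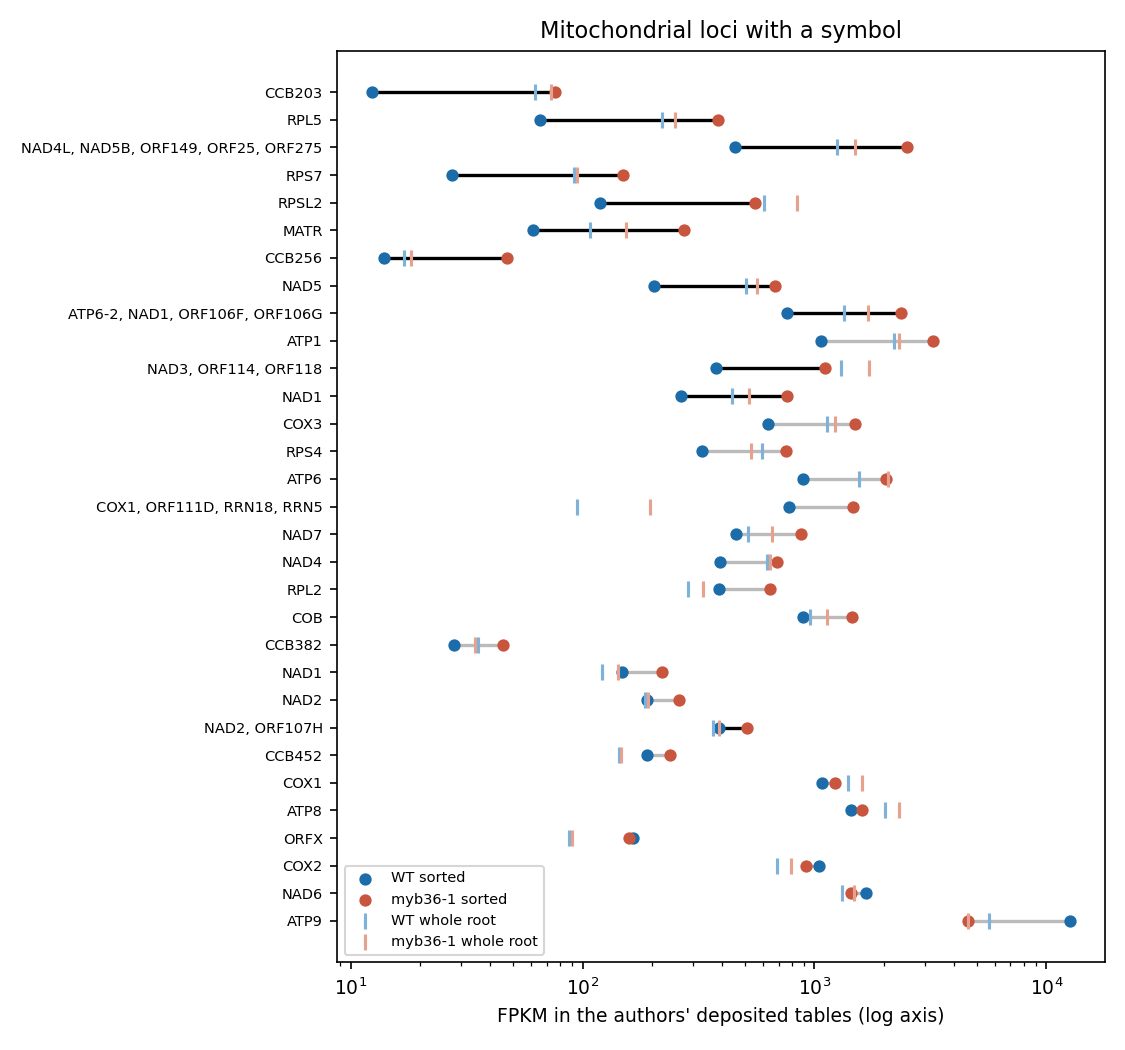
FPKM (log x axis) of mitochondrial rows with a symbol in the authors' deposited tables, in sorted endodermis (dots) and whole roots (ticks), ordered by the log2 difference in sorted cells; a black line joins genotypes where q is under 0.05 in sorted cells, a grey line where it is not. The tissues were normalized separately, and for rows such as CCB203, RPL5 and MATR the WT sorted dot lies to the left of the whole-root ticks.

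Nuclear genes for mitochondrial proteins were called in both directions in sorted cells. Of 26 nuclear respiratory subunits, 2 rose and 6 fell in mutant sorted cells against wild type, and 0 were called in whole roots (edgeR). Over all loci tested, 28.5% were called in sorted cells, 15.6% higher and 12.9% lower, and 6.1% in whole roots. The same background holds for the polymerase and import genes below. The rises were SDH1-1, a subunit of succinate dehydrogenase (145 ± 26.8 to 590 ± 67.4 CPM, mean ± SD, n = 3; log2 2.07 ± 0.23, edgeR adjusted p = 9.3e-04), and AT5G08680, annotated as an ATP synthase alpha/beta family protein (126 ± 14.4 to 244 ± 27.3 CPM, edgeR adjusted p = 0.0066). The falls had AT3G15640, annotated as a Rubredoxin-like protein, as the largest (314 ± 17.4 to 139 ± 4.03 CPM; log2 -1.13 ± 0.19, edgeR adjusted p = 0.0045), followed by GAMMA CA1 (log2 -1.07 ± 0.28, adjusted p = 0.023) and AT3G27240, a cytochrome C1 family protein (log2 -1.02 ± 0.20, adjusted p = 0.0081). Both phage-type polymerases listed rose in mutant sorted cells: MGP3 (AT1G68990) from 27.6 ± 2.31 to 67.3 ± 35.3 CPM (log2 1.28 ± 0.35, edgeR adjusted p = 0.027) and AT5G15700 from 9.63 ± 2.24 to 32.8 ± 16.7 CPM (log2 1.76 ± 0.39, edgeR adjusted p = 0.012). In whole roots neither was called (adjusted p = 0.998 and 0.918). Of 3 import and outer membrane genes, TOM20-2 (log2 -0.98 ± 0.22, adjusted p = 0.013), a receptor of the import channel, and VDAC1 (log2 -1.03 ± 0.23, adjusted p = 0.014), a channel of the outer membrane, fell.

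Of 5 genes linked to mitochondrial stress, 2 were higher and 2 lower in sorted cells of wild type, against 68.7% of all loci called in that comparison. In the mutant 2 of 4 tested were higher and 0 lower, against 29.6% of loci called. Between genotypes in sorted cells 1 rose and 1 fell, against 28.5%: BCS1 with log2 1.70 ± 0.43 (edgeR adjusted p = 0.021) and AT2G21640 with -4.55 ± 1.31 (edgeR adjusted p = 0.034). BCS1 (AT3G50930) was at 209 ± 22.2 CPM in WT sorted and 14.7 ± 3.21 in WT whole root (log2 4.06 ± 0.19, edgeR adjusted p = 2.4e-07), and at 639 ± 342 and 20.9 ± 2.41 CPM in the mutant (log2 5.20 ± 0.52, adjusted p = 6.2e-04). The other rise was HSP23.6-MITO, a small heat shock protein, with log2 9.03 ± 0.89 in wild type (edgeR adjusted p = 1.6e-05) and 6.15 ± 0.68 in the mutant (edgeR adjusted p = 9.3e-04). The falls were NAC13 (log2 -0.99 ± 0.24, edgeR adjusted p = 0.0047) and NAC017 (log2 -0.31 ± 0.11, edgeR adjusted p = 0.029), both transcription factors. Of the alternative oxidase and NAD(P)H dehydrogenase list, 7 of 12 were tested in wild type, where 4 rose and 1 fell in sorted cells, again against 68.7% of loci called. NDB2 rose in both genotypes, from 156 ± 17.97 to 546 ± 44.7 CPM in wild type (edgeR adjusted p = 1.8e-06) and from 150 ± 11.3 to 377 ± 128 CPM in the mutant (edgeR adjusted p = 0.0085), while AOX1A was not called in any of the 5 comparisons (adjusted p = 0.148 to 0.512).

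Plastid genome transcripts, counted by the same sum rule (85 ATCG loci), took 0.655 ± 0.179% of counts in WT sorted, 0.709 ± 0.161% in mutant sorted, 1.01 ± 0.0992% in WT whole root and 0.928 ± 0.111% in mutant whole root libraries (mean ± SD, n = 3). Of 72 tested in sorted cells, 15 were higher and 3 lower in the mutant, with a median log2 difference of 0.31; over all loci 28.5% were called, 15.6% higher and 12.9% lower. In wild type, 10 of 74 were higher and 36 lower in sorted cells than in whole roots, with a median of -0.58, against 68.7% of loci called and a median of 0.31 for the ATMG members tested.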

How the data were processed

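The values tested were raw read counts per locus, deposited by the authors for all 12 libraries. The submitters' processing notes name TopHat2, SAMtools, Cufflinks, Cuffdiff and HTSeq with build TAIR10, and give no versions, roles or strand setting. FPKM per genotype, the log2 ratio, p-values and q-values came from the authors' deposited tables, per the file headers, with replicates pooled. Deposited normalized counts were not used. The members and gene lists were chosen with earlier results of these data known.

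Genotypes and tissues were compared with edgeR 4.0.16 (R 4.3.3, limma 3.58.1, DESeq2 1.42.0 as alternative): TMM factors, filterByExpr, the quasi-likelihood test, and Benjamini-Hochberg adjustment over all loci tested, called at an adjusted p under 0.05. The SE is the log2 difference divided by the square root of F. Scripts were tested on simulated counts. CPM used the total count of all loci. A count of 0 allows up to 3 counts, which is 0.124 to 0.412 CPM here, for counting error only. Members named were those in a list of respiratory and ribosomal roles, the 5 others with the highest mean CPM, and per comparison the 3 largest rises and falls called among the rest; exceptions are marked. Replicate pairs within a group differed beyond sampling noise (chi-square per degree of freedom of 11.6 to 99.3, 12 pairs), with Spearman correlations of 0.889 to 0.915 among mutant sorted libraries and at least 0.978 elsewhere. The labels call replicates biological. Sequences came from the RefSeq TAIR10.1 genome, whose mitochondrial coordinates differ from those of the files and were not used for the files' loci.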

Additional observations from a re-analysis of the deposited data

Results flagged for a closer look

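For 18 of 63 members tested (28.6%) the mutant effect differed between sorted endodermis and whole root by the edgeR interaction test. Over all loci tested the share was 28.4%. The differences of log2 effects were negative for ATMG00360 (-2.91), ATMG01390 (-1.89), ATMG01080 (-1.61), ATMG00690 (-1.02) and ATMG00160 (-0.88). They were positive for ATMG00730 (0.58), ATMG00520 (0.94), ATMG01200 (1.02), ATMG00513 (1.07), ATMG00090 (1.42), ATMG01120 (1.66), ATMG00080 (1.74), ATMG00660 (1.85), ATMG01130 (2.23), ATMG00650 (2.37), ATMG00640 (2.67), ATMG00030 (4.01) and ATMG00960 (4.17). The call was kept in 6 of 21 alternatives for ATMG00360, 7 for ATMG00730, 9 for ATMG00520 and 10 for ATMG00030.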

How the results depend on the processing

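Relative to the total of the ATMG rows, the median of all loci moved to -0.50 and -0.16 for the genotype in sorted cells and whole roots, to -1.77 and -2.10 for the tissue in wild type and mutant, and to -0.36 for the interaction; raw totals moved the tissue medians to -0.24 and -0.29. On the ATMG total, edgeR called 9 members between genotypes in sorted cells (main 18), 0 in whole roots (main 1, 3 at an unadjusted p under 0.05), 37 between tissues in the mutant (main 19, 8 of them shared) and 10 in the interaction (main 18). For these 4 comparisons it called 2747 of 18318, 1355 of 19624 (3713 unadjusted), 15287 of 19347 and 2768 of 20302 loci. Changes of sign are listed only for called members of the naming rule, 26 in wild type and 12 in the mutant. Among these, sorted over whole root in wild type then turned negative for ATMG00070 (-1.17), ATMG00110 (-1.23), ATMG00130 (-0.15), ATMG00160 (-0.83), ATMG00560 (-0.86), ATMG00670 (-0.51), ATMG00690 (-0.56), ATMG01080 (-0.23), ATMG01220 (-0.96) and ATMG01320 (-1.15). In the mutant it did so for ATMG00090 (-1.33), ATMG00520 (-1.36), ATMG00560 (-1.26), ATMG00570 (-0.53), ATMG00660 (-0.50), ATMG00670 (-1.29), ATMG01120 (-1.17) and ATMG01200 (-1.38). In whole roots 0 members were called on the ATMG total without 3 loci (4 unadjusted) and in 1 fit of all 12 libraries (3 unadjusted), and 2 with no low-count filter. DESeq2 called 1. In these settings 1230 of 19624 (3568 unadjusted), 142 of 20302 (1261 unadjusted), 1611 of 27342 and 1591 of 27342 loci were called. The fit of all 12 libraries called 29 in the mutant's tissue comparison. Leaving out 1 library at a time gave 12 to 21, 0 to 2, 32 to 42, 6 to 26 and 12 to 18 calls in the order above. The interaction of ATMG00020 (0.18) was not called and changed sign on the ATMG total (-0.15); without 1 library it ran from -0.34 to 0.53. With the replicate block 17, 1, 36, 9 and 15 members were called; same-numbered libraries did not deviate together in every pair (correlations from -0.14 to 0.29), so the numbers were not taken as pairs. Not every library correlated best with its own number. Members with a nuclear copy, left out after the data were seen, took the share of counts to 0.725% and 0.842% in WT and mutant whole roots, and the share without 3 loci to 0.537% and 0.665% in WT and mutant sorted cells, with 0.644% and 0.715% in whole roots. Over nuclear counts, the share without 3 loci was 1.14% in mutant sorted cells. A planned exclusion by exon sequence sharing was not run. Where not given by the setting's construction, the cause was not tested.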
